A study of Arabidopsis thaliana with 16 samples.

Results

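The plastid genome of Arabidopsis thaliana encodes, beside the subunits of the photosynthetic complexes, parts of the machinery that expresses it and a few other proteins, and 26 of the 22746 probe sets on the array measured these genes. A probe set was taken where the probe annotation gave it 1 gene, with a plastid locus tag (beginning ArthCp) and a symbol not beginning psa, psb, pet, atp, ndh or rbcL. The members were 4 subunits of the plastid RNA polymerase (rpoA, rpoB, rpoC1, rpoC2), the maturase matK, 8 proteins of the small and 7 of the large ribosomal subunit, the protease subunit clpP, the acetyl-CoA carboxylase subunit accD, and ycf3, ycf4, ccsA and cemA. A further 7 plastid probe sets name 2 copies of a gene each (rps12 on 2 probe sets, rpl2, rpl23, ycf1, ycf2 and rps7) and were left out by this rule. All 26 members passed the filter on low signals, and 43 probe sets of the plastid photosynthesis genes served as their comparison.

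Whole rosettes were profiled on 16 Affymetrix arrays, in 8 groups of 2. The mutants were atg5 (allele atg5-3, line SALK_02060) and atg9 (line SALK_130796), each a single T-DNA line deficient in autophagy, and Col-0 was the wild type. The genes ATG5 and ATG9 themselves were not analysed here. On low nitrate (LN, 2 mM) the groups were atg5, atg9 and Col-0 at 60 days (T60) and the same genotypes at 30 days (T30), and on high nitrate (HN, 10 mM) they were atg5 and Col-0, whose labels give both 30 and 60 days. All plants grew in days of 8 h light and 16 h dark, and each array held RNA of more than 6 pooled plants. The 2 arrays of a group came from cultures sown several months from each other, which makes n = 2 for every group mean.

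Plastid genes are transcribed by a bacterial type polymerase, whose core the rpo genes encode, and by phage type polymerases made from nuclear genes. Their transcripts are translated on bacterial type ribosomes, built from proteins of both genomes, and many ribosomal protein genes lie in clusters that are transcribed together. In leaves, autophagy carries pieces of chloroplasts, and whole chloroplasts, to the vacuole, and chloroplast RNA and ribosomes are broken down as leaves age. Plastid transcripts mostly lack stable poly(A) tails. The labels do not give the primer used to label the RNA, so how well the labelling captured them on each array is unknown here.

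Signals below are the authors' linear array intensities, given for culture 1 and then culture 2. Differences are log2 differences between group means with the SE of the limma fit after ±, and a member was called where its p, adjusted by Benjamini-Hochberg over 13648 probe sets, was under 0.05. The median signal over all probe sets ran from 154 to 254 on the 16 arrays. The culture 1 array of Col-0 at LN T30 stood apart in its dim range: its lower quartile was 89.3, where the other arrays had 26.6 to 39.0, and the correlation between the cultures was lowest in its group (r = 0.866 across probe sets). For the actin control, the 3′/5′ ratio was 9.05 on the culture 1 array of atg5 at LN T60 and 1.5 to 3.04 elsewhere. The ratio of the GAPDH control was also highest on that array, at 2.01, against 0.78 to 1.24 elsewhere. Rosette markers were high on every array, with RCA and LHCB4.2 summing to 29884 to 57422, and the root marker PYK10 lay between 228 and 1311. In RNA of whole rosettes, fewer plastids or cells of a type and fewer transcripts in each cannot be told apart.

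The general level of the members differed between cultures as well as between groups. Their median log2 signal on an array was 9.91 and 8.86 in atg5 at LN T60, 12.07 and 10.31 in atg5 at LN T30, and 11.94 and 11.38 in atg5 on HN. In atg9 it was 10.01 and 10.38 at LN T60 and 11.88 and 10.00 at LN T30. In Col-0 it was 10.61 and 9.07 at LN T60, 11.35 and 8.94 at LN T30 and 11.25 and 11.99 on HN. In the LN groups other than atg9 at T60, culture 2 was the lower one, with a median gap over members from -0.98 in atg9 at T30 to -1.90 in Col-0 at T30. Between 21 and 24 of the 26 members shared that direction in each of these 5 groups. On HN the gap was -0.21 in atg5 and 0.44 in Col-0. The photosynthesis probe sets had similar gaps, from -1.02 to -1.78 in the same 5 groups. The members had larger SEs than most probe sets. Their median SE was 0.63, and 94.7% of all tested probe sets had a smaller one than that, where the median of all was 0.31. This SE includes culture gaps that differ between groups, so it does not measure the precision of the arrays alone.

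**Figure D1:**
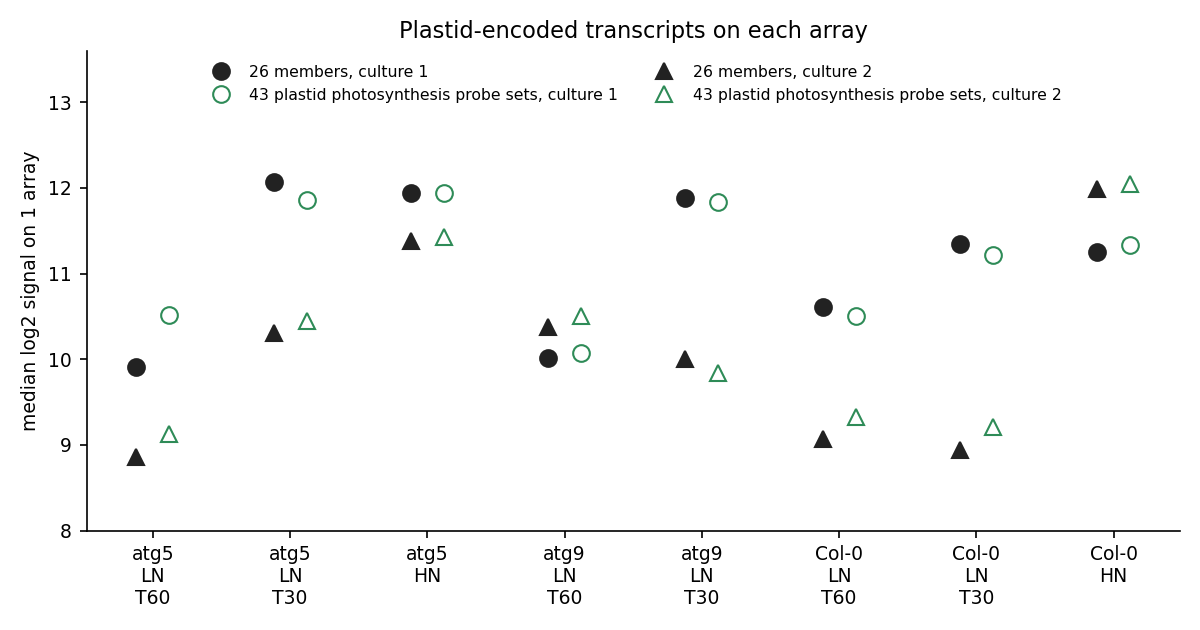
Median log2 signal of the 26 members (filled) and of 43 plastid photosynthesis probe sets (open) on each of the 16 arrays, with circles for culture 1 and triangles for culture 2. Both sets move together from array to array, and culture 2 is lower by about 1 or more in 5 of the 6 LN groups.

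Ribosomal protein transcripts carried the calls. Between T60 and T30 on low nitrate, 9 of the 26 members were lower in atg5 and 0 were higher, where 13.3% of all tested probe sets were lower and 12.6% higher. The same 9 members had an unadjusted p under 0.05, against 5369 of the 13648 probe sets tested. In either direction, then, members passed that limit no more often than all probe sets did. All 9 were among the 15 ribosomal protein genes, and 0 of the other 11 members were called. In these 11 the differences ran from -1.71 in cemA to -0.02 in accD. Over the members the median difference was -1.29, against -0.03 over all probe sets tested and -1.09 over the photosynthesis probe sets, of which 11 of 43 were lower. It was below 0 for 25 of 26 members, and for 19 of them in both cultures.

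Of the 9 genes, 6 lie in the ribosomal protein cluster whose genes described here are, in order, rpl23, rpl2, rps19, rpl22, rps3, rpl16, rpl14, rpl36 and rpoA. The transcript of rpl14 (locus tag ArthCp059), whose Escherichia coli counterpart lies at the interface of the ribosomal subunits, had signals of 256 and 414 in atg5 at LN T60, against 2126 and 1449.7 at T30. On HN atg5 had 1355 and 1181, and Col-0 had 1381 and 1497. Both atg5 arrays at T60 were below the arrays of every other group, among which Col-0 at T30 from culture 2 was lowest, at 545. The age difference in atg5 was -2.43 ± 0.46 (limma, adjusted p = 0.00391). In atg9 rpl14 had 788 and 1804.5 at T60, against 1714 and 1011 at T30, and in Col-0 it had 2343 and 1394 at T60, against 1071 and 545 at T30. The ages overlapped in atg9, while both Col-0 arrays at T60 were above both at T30.

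The next gene, rpl16 (ArthCp060), whose bacterial counterpart in E. coli lies beside the aminoacyl tRNA site, had 595 and 504 in atg5 at LN T60, against 2376 and 1877 at T30. On HN atg5 had 2006 and 1197 and Col-0 had 1403 and 1944. It had 801 and 1516 in atg9 at T60, against 2139.8 and 1056 at T30, and in Col-0 2716 and 1522 at T60, against 1280.5 and 620.3 at T30. Again the 2 atg5 arrays at T60 were the lowest of the 16, and the age difference in atg5 was -1.95 ± 0.43 (limma, adjusted p = 0.0081). The small subunit gene rps3 (ArthCp061), whose E. coli counterpart sits where mRNA enters the ribosome, had 1004 and 1699 in atg5 at T60, against 11818 and 5168 at T30. The groups did not overlap, and the difference was -2.58 ± 0.66 (limma, adjusted p = 0.0156). Elsewhere rps3 had 7602 and 6081 in atg5 on HN, 2734 and 6453 in atg9 at T60 and 9241 and 7499.9 in atg9 at T30. Col-0 had 6493 and 4825 at T60, 9763 and 1621 at T30 and 8729 and 8153 on HN, so the Col-0 array at T30 from culture 2 lay between the 2 atg5 arrays at T60.

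For rpl22 (ArthCp062), whose E. coli counterpart lines the exit tunnel of the nascent chain, atg5 had 550.5 and 465 at LN T60, against 7267 and 2709 at T30, and 5398 and 5413 on HN. In atg9 it had 1011 and 3789.5 at T60, against 7929.8 and 3203 at T30. Col-0 had 4064 and 1675 at T60, against 9332 and 694 at T30, and 5459.8 and 6326 on HN. The atg5 arrays at T60 were the lowest of all, and the difference was -3.13 ± 0.92 (limma, adjusted p = 0.027). The small subunit gene rps19 (ArthCp063) had 502 and 583 in atg5 at LN T60, against 7697 and 2907 at T30, and 7184 and 5482 on HN. In atg9 it had 858 and 3407 at T60, against 8196 and 3209.7 at T30. Col-0 had 3999.5 and 1949 at T60, against 7258 and 806.5 at T30, and 7006 and 5769 on HN. As for rpl22, the atg5 arrays at T60 were the lowest of the 16, with an age difference of -3.13 ± 0.83 in atg5 (limma, adjusted p = 0.0184).

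The last member called in this cluster, the large subunit gene rpl36 (ArthCp057), had 1528 and 2204 in atg5 at LN T60, against 5625 and 4431 at T30, and 6157 and 2336.5 on HN. It had 3819 and 8072 in atg9 at T60, against 5866 and 4417.5 at T30. Col-0 had 5392 and 6954 at T60, against 3277 and 3711 at T30, and 2636 and 4567 on HN. The difference in atg5 was -1.44 ± 0.47 (limma, adjusted p = 0.0402), the smallest of the 9, and it passed in 8 of 16 fits that each left out 1 array. It did not pass with quantile normalization, median centring or no filter (adjusted p = 0.0585, 0.0575 and 0.0516). The neighbours rpl2 and rpl23, read by probe sets that name 2 copies of each and so outside the member set, were also lower with age in atg5. They changed by -2.03 (limma, adjusted p = 0.0029) and -2.64 (limma, adjusted p = 0.00538). They were the only 2 called of the 7 such plastid probe sets, which ran from -2.64 to 0.24 with a median of -0.98.

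The polymerase gene rpoA (ArthCp055), which lies at the far end of the cluster, had 7182 and 4832 in atg5 at LN T60, against 7355 and 4954 at T30, and 8708 and 3871 on HN. In atg9 it had 6116 and 6794 at T60, against 7819 and 6498 at T30, and in Col-0 7247 and 5849 at T60, against 8459 and 4604 at T30. Its highest array was 2.25 times its lowest, the narrowest range of the 26, and its age difference in atg5 was -0.04 ± 0.30.

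The other 3 called genes lie elsewhere on the plastid genome. The large subunit gene rpl33 (ArthCp043) and the small subunit gene rps18 (ArthCp044) are neighbours. In atg5 rpl33 had 2062 and 436 at LN T60, against 16371 and 4691.5 at T30, and 13405 and 10188 on HN, with an age difference of -3.21 ± 0.85 (limma, adjusted p = 0.0185). It had 1941 and 5426 in atg9 at T60, against 17870.2 and 5567.5 at T30, and in Col-0 5701 and 1619 at T60, against 12262 and 1010.5 at T30, and 16722 and 13323 on HN. With a factor of 41.0 between highest and lowest array, rpl33 had the widest range of the members. In atg5 rps18 had 211 and 201.5 at T60, against 5404 and 785 at T30, and 5354 and 3037 on HN, a difference between the ages of -3.32 ± 1.03 (limma, adjusted p = 0.0349). It had 401.5 and 1098 in atg9 at T60, against 4937 and 1699.8 at T30, and in Col-0 1064 and 723 at T60, against 6273.5 and 267 at T30, and 4011 and 3956.5 on HN. In the fit without the culture block rpl33 and rps18 did not pass (adjusted p = 0.0517 and 0.0579). The next gene along, rpl20, was not called: it had 1011 and 278 in atg5 at T60, against 867 and 896 at T30, with a difference of -0.73 ± 0.57.

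The large subunit gene rpl32 (ArthCp072), which lies between ndhF and ccsA, had 313 and 874 in atg5 at LN T60, against 7745 and 2139 at T30, and 8423 and 5039.9 on HN. It had 1139.7 and 2542 in atg9 at T60, against 6809.5 and 3975 at T30. Col-0 had 1908.5 and 2119 at T60, against 8700 and 1246.5 at T30, and 6793 and 6243 on HN. Its difference in atg5 was -2.96 ± 0.81 (limma, adjusted p = 0.0201), at -4.63 in culture 1 and -1.29 in culture 2.

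How many of the 9 passed depended on single arrays. Without the atg5 array at T60 from culture 1, which has the high actin ratio, 2 passed (rpl14 and rpl33), and without that at T30 from culture 1, 2 passed (rpl14 and rpl16). Without the culture 2 array of atg5 at T30 the count was 3, and without that at T60 it was 5. The call for rpl14 passed in all 16 fits that each left out 1 array. All 9 differences were below 0 in both cultures, with medians of -3.56 in culture 1 and -1.90 in culture 2. The 9 were chosen by their calls in this same comparison on the same arrays, so this is a description. The part of the actin and GAPDH ratios in these differences was not tested. PYK10 was lower with age in atg5 as well, at 423 and 505 at T60, against 1142 and 1007 at T30 (limma, adjusted p = 0.0283). This was not particular to atg5: PYK10 differed with age by -1.64 in atg9 (limma, adjusted p = 0.00913). In Col-0 it differed by -1.13 (limma, adjusted p = 0.0619). The part of PYK10 was not tested either.

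**Figure D2:**
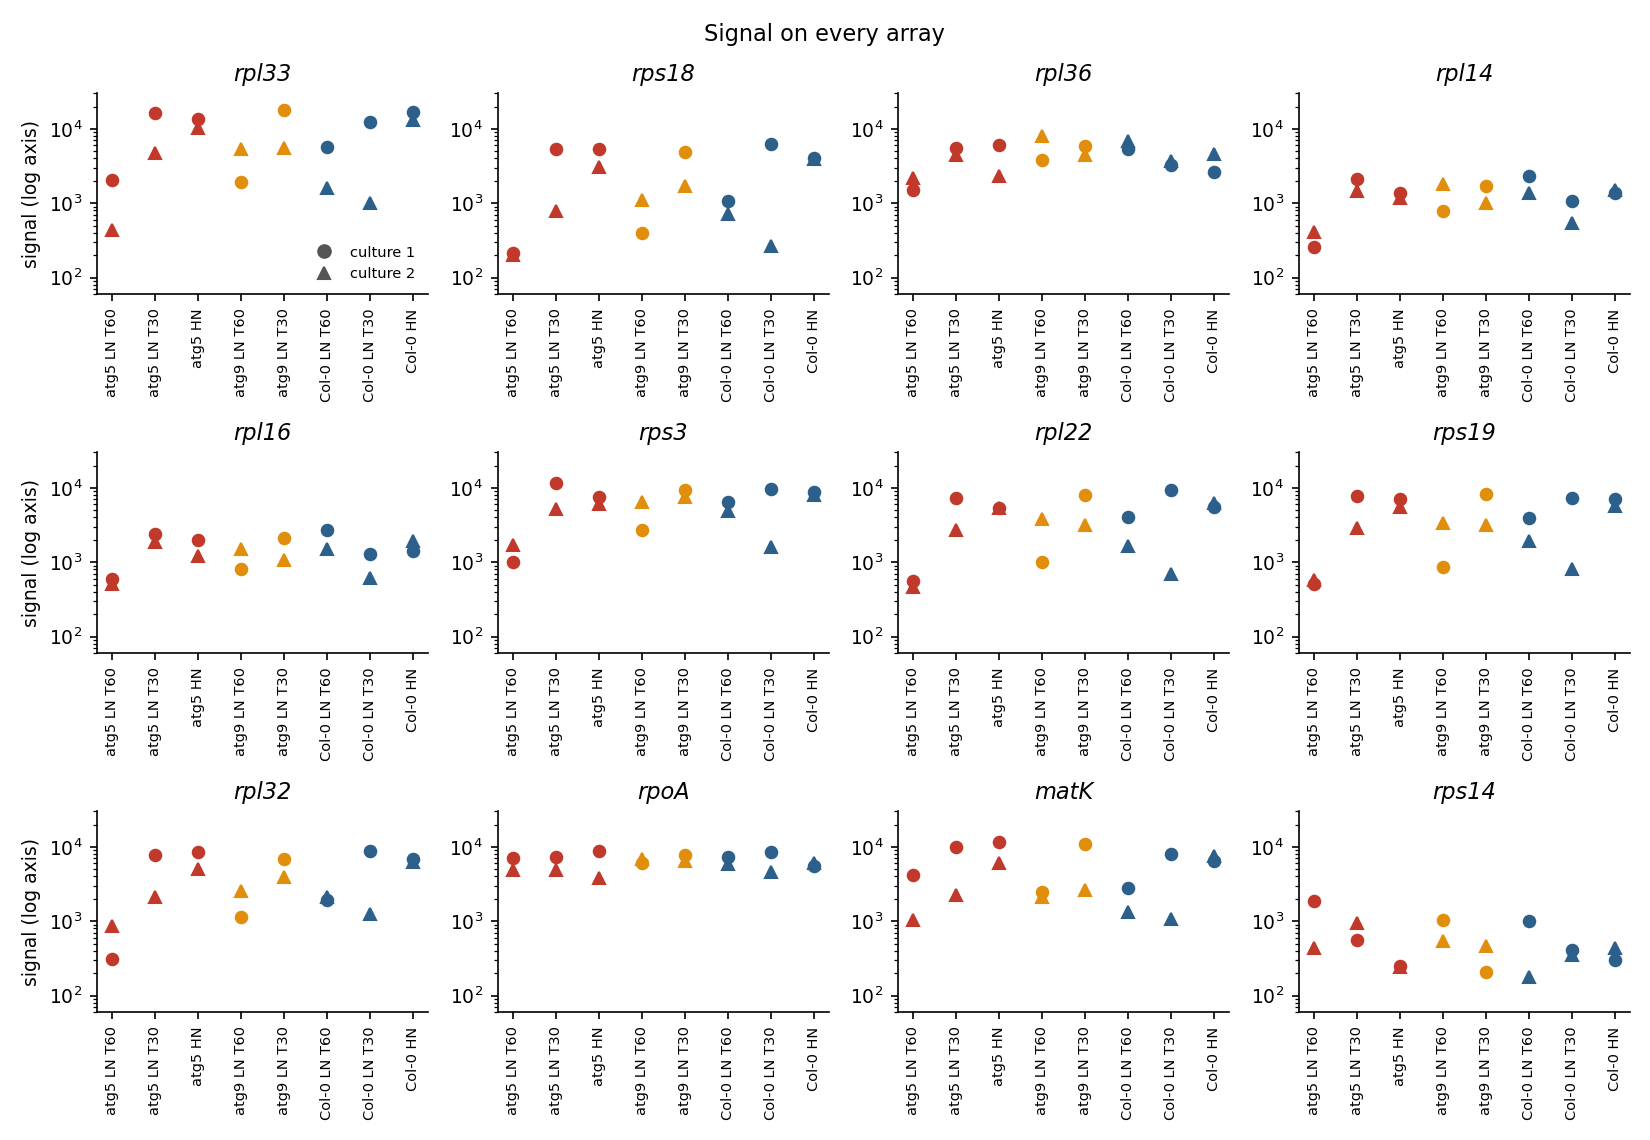
Signal (log axis) on each array for the 9 called ribosomal protein genes and for rpoA, matK and rps14, with circles for culture 1 and triangles for culture 2. In the called genes the 2 atg5 arrays at LN T60 lie below those at LN T30, while rpoA stays between 3871 and 8708 on all 16 arrays.

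Age differences in the other genotypes were not called for any member. In atg9 0 of 26 passed with limma and 2 had an unadjusted p under 0.05, as did 36.9% of all tested probe sets. By the adjusted p 8.61% of all tested probe sets were lower and 13.5% higher. The members' median was -0.61, with 20 of 26 below 0, but the cultures parted, with a median of -1.27 in culture 1 and 0.11 in culture 2. Without the atg9 array at T60 from culture 2, rpl33 and rps19 passed as lower. In Col-0 0 of 26 passed with limma and 3 had an unadjusted p under 0.05, as did 30.4% of all. By the adjusted p 4.67% of all tested probe sets were lower and 6.95% higher. There 12 members were above and 14 below 0, with a median of -0.07. Both Col-0 arrays at T60 were above both at T30 for rpoB, rpl36, rpl14 and rpl16, which were singled out after their values were seen, and 0 members lay wholly lower. Over all tested probe sets 31% lay wholly higher at T60 and 22.5% wholly lower. Of these 4 rpl14 differed by 1.24 ± 0.46 (adjusted p = 0.0941) and rpl16 by 1.19 ± 0.43 (adjusted p = 0.089).

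**Figure D3:**
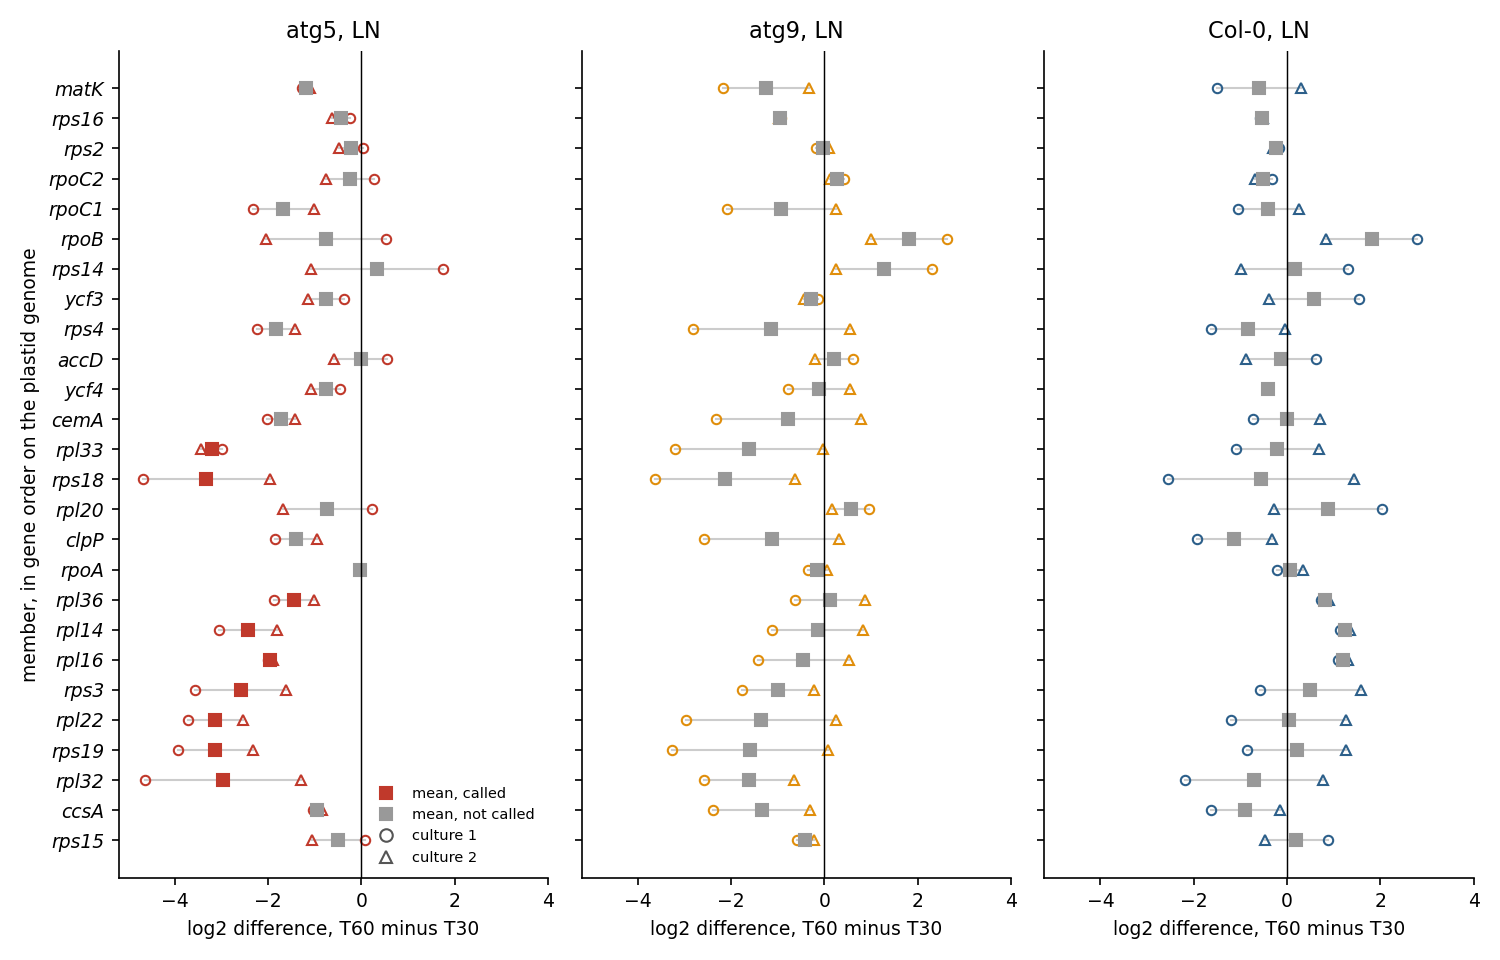
Log2 difference between T60 and T30 on low nitrate for each member, in gene order on the plastid genome, in atg5, atg9 and Col-0. Squares are means of the cultures (coloured where called), circles culture 1 and triangles culture 2. The 9 called members are all in the atg5 panel, at -1.44 to -3.32.

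Whether the change with age itself differed between genotypes was tested as an interaction. For atg5 minus Col-0 0 of 26 members passed with limma, where 0.0293% of all probe sets were lower and 0.132% higher, and 8 members had an unadjusted p under 0.05, as did 14.3% of all. The smallest adjusted p values were 0.0542 for rpl14, at -3.67 ± 0.65, and 0.063 for rpl16, at -3.14 ± 0.61. All of the 9 genes lay below 0 in both cultures, at -2.25 to -3.67, but they were chosen from calls that use the same atg5 arrays, so this is a description. Without the atg5 array at T60 from culture 2 rpl14 passed, and without the Col-0 array at T30 from culture 2 rpl14 and rpl16 passed. For atg9 minus Col-0 0 of 26 passed, where 0.00733% of all probe sets were higher and 0 were lower, and 1 member had an unadjusted p under 0.05, as did 4.62% of all. Here too all of the 9 genes lay below 0 in both cultures, at -0.69 to -1.79, and both interactions use the same Col-0 arrays.

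At 60 days on low nitrate, atg5 was set against Col-0 directly. Here 2 members were lower in atg5 and 0 higher, where 1.86% of all tested probe sets were lower and 3.96% higher. They were rpl14, at 256 and 414 in atg5, against 2343 and 1394 in Col-0, a difference of -2.47 ± 0.46 (limma, adjusted p = 0.0101), and rpl16, at 595 and 504 in atg5, against 2716 and 1522 in Col-0, a difference of -1.89 ± 0.43 (limma, adjusted p = 0.0275). For rpl36 the difference was -1.74 ± 0.47, with an adjusted p of 0.0506, and it passed without the culture block, with quantile normalization and with 32 added before log2 (adjusted p = 0.047, 0.0477 and 0.0452). The groups did not overlap for 8 of the 26 members, all lower in atg5: rpl14, rpl16, rpl36, rps3, rpl22, rps19, rps18 and rpl32. That count is near the share over all tested probe sets, of which 33.7% lay wholly lower in atg5 and 19.5% wholly higher. Outside the member set, rpl2 (-1.78, adjusted p = 0.0162) and rpl23 (-2.11, adjusted p = 0.0417) were lower too.

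Beside rpl14 and rpl16 no member was called. The 9 genes lower with age in atg5 differed from Col-0 at T60 by -1.68 to -2.47, below 0 in both cultures, whereas the other 17 lay at -0.43 to 1.11 with a median of 0.18. Since the age comparison and this one share the atg5 arrays at T60, the first range is not independent of how the 9 were chosen. The median over all 26 was 0.00, and over all tested probe sets -0.14. Among the photosynthesis probe sets 0 of 43 passed with limma and 9 had an unadjusted p under 0.05, as did 23.6% of all tested probe sets, and the median was 0.14. They ran from -2.06 to 1.41, with 24 above and 19 below 0, and 17 were below 0 in both cultures. The lowest, atpE, had 1166 and 788 in atg5, against 4667 and 3420 in Col-0. Drops as large as those of the 9 genes were thus not confined to ribosomal protein genes. Neither rpl14 nor rpl16 passed without the Col-0 array from culture 1 (adjusted p = 0.129 and 0.223) or the atg5 array from culture 1 (adjusted p = 0.123 and 0.179), and rpl16 did not pass without the Col-0 array from culture 2 (adjusted p = 0.0862). Without the atg5 array from culture 2, 4 passed (rpl14, rpl16, rpl32 and rps3).

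To set the members against the other plastid transcripts of the same array, each log2 signal was taken relative to the array's median over the photosynthesis probe sets. On this scale the 9 genes in atg5 minus Col-0 at LN T60 lay at -1.48 to -3.21 in culture 1 and -1.07 to -1.69 in culture 2. The other 17 lay at -0.82 to 1.14 in culture 1 and -0.14 to 1.52 in culture 2. The ranges did not touch in either culture of that comparison, but they overlapped in others. That separation is not independent of how the 9 were chosen, since their calls use the same atg5 arrays at T60. The scale also uses only the median of the photosynthesis probe sets, whose own differences in that comparison ran from -2.06 to 1.41. Between T60 and T30 in atg5 the 9 lay at -3.34 to -0.54 in culture 1 and -2.10 to 0.32 in culture 2, with 2 of the 9 above 0 in culture 2. The other 17 lay there at -0.99 to 3.10 in culture 1 and -0.73 to 1.29 in culture 2. In atg9 minus Col-0 at LN T60 the 9 lay at -1.79 to -0.07 in culture 1 and -1.18 to 0.57 in culture 2, against -0.52 to 1.13 and -0.96 to 0.65 for the other 17. These values describe the arrays and were not tested.

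**Figure D4:**
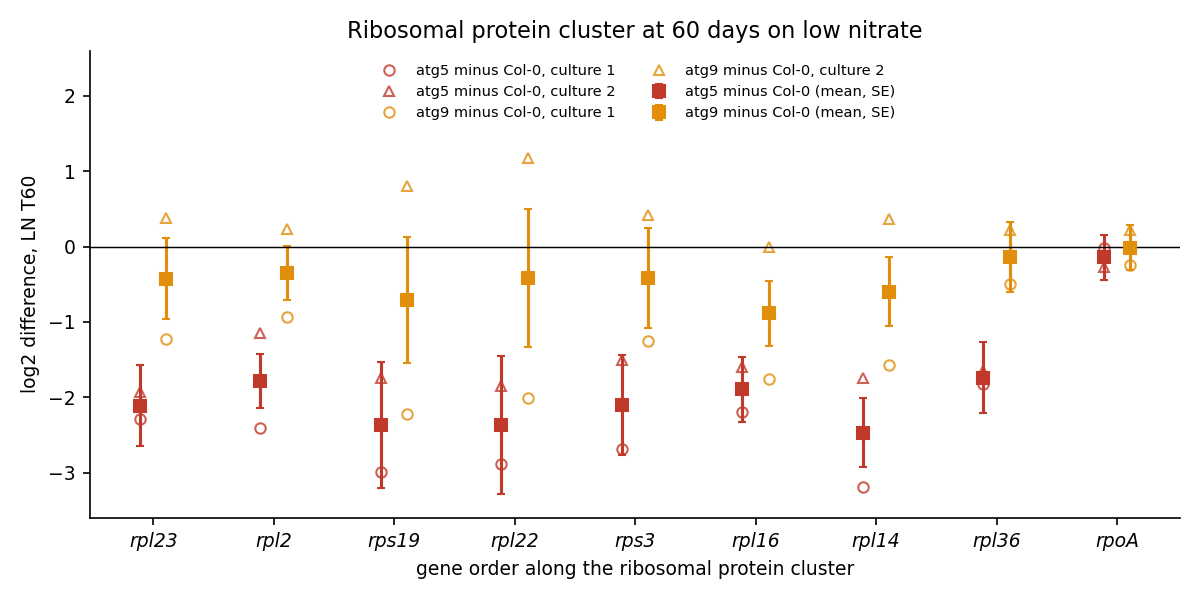
Log2 differences from Col-0 at LN T60 along the ribosomal protein cluster, for atg5 (red) and atg9 (orange), with circles for culture 1, triangles for culture 2 and squares with SE bars for the fitted means. In atg5 the genes from rpl23 to rpl36 lie at -1.74 to -2.47 and rpoA at -0.14, and rpl23 and rpl2 are read by probe sets that name 2 gene copies.

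In atg9 no member was called. At LN T60 0 of 26 members passed against Col-0 with limma and 0 had an unadjusted p under 0.05, against 4.7% of all probe sets. By the adjusted p 0.00733% of all probe sets were lower and 0.0366% higher. The cultures pointed in opposite directions, with 21 of 26 members below 0 in culture 1 (median -0.36) and 1 of 26 in culture 2 (median 1.19). Of the 26 members 25 overlapped between the groups, where over all tested probe sets 17.9% lay wholly lower in atg9 and 16.5% wholly higher. The exception was rpl16, at 801 and 1516 in atg9, against 2716 and 1522 in Col-0. Its difference was -0.88 ± 0.43, with an adjusted p of 0.999.

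At 30 days on low nitrate most members lay above Col-0 in both mutants, with no call. In atg5 against Col-0 25 of 26 were above 0, with a median of 0.95 (0.54 in culture 1, 1.34 in culture 2). In atg9 against Col-0 25 of 26 were above 0, with a median of 0.80 (0.47 in culture 1, 0.94 in culture 2). Both comparisons use the same Col-0 arrays, and the photosynthesis probe sets had medians of 0.81 in atg5 and 0.68 in atg9. With limma 0 of 26 members passed in either mutant, where 0 of all probe sets did so in atg5 and 0.00733% were lower in atg9. At an unadjusted p under 0.05 there were 5 members in atg5, against 7.03% of all probe sets, and 1 in atg9, against 5.93%. The Col-0 array from culture 1 is the one with the high lower quartile. The Col-0 array from culture 2 had a member median of 8.94, against 11.35 in culture 1. Only the atg5 array at LN T60 from culture 2 had a lower one, at 8.86. The part of either Col-0 array was not tested. On HN 0 of 26 members passed in atg5 against Col-0 with limma and 0 had an unadjusted p under 0.05, against 8.05% of all probe sets. By the adjusted p 0.022% of all probe sets were lower and 0.147% higher. Culture 1 gave a median of 0.28 over the members and culture 2 one of -0.41.

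Nitrate supply was compared at both ages of the LN groups, because the labels give the HN arrays 2 ages. In Col-0 at LN T30 against HN, 0 of 26 members passed with limma and 9 had an unadjusted p under 0.05, as did 27.2% of all probe sets. By the adjusted p 4.74% of all probe sets were lower and 3.32% higher. The median was -1.15, with 23 of 26 below 0, but it was 0.14 in culture 1 and -2.33 in culture 2. The largest of these differences was that of cemA, at -2.48 ± 0.81 (adjusted p = 0.0754). Without the Col-0 array on HN from culture 1, ccsA and rps2 passed as lower. In atg5 at LN T30 against HN 0 of 26 passed with limma and 2 had an unadjusted p under 0.05, as did 29% of all. By the adjusted p 7.32% of all probe sets were lower and 5.13% higher. There the median was -0.28. Over the photosynthesis probe sets the medians at LN T30 against HN were -1.31 in Col-0 and -0.35 in atg5. The gene ycf3, whose product assists photosystem I assembly, had 1081 and 844 in atg5 at LN T30, against 353 and 321 on HN, a difference of 1.50 ± 0.46 (limma, adjusted p = 0.0531). It was singled out after its values were seen. It passed in 6 of the 16 fits that each left out 1 array, none of which was an array of these 2 groups. The root marker PYK10 was higher at LN T30 than on HN, by 2.11 in atg5 and 1.59 in Col-0, and its part in the members' values was not tested.

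At LN T60 against HN most members lay below HN in both genotypes, with no call. In atg5 20 of 26 were below 0, with a median of -1.73, and in Col-0 19 of 26 were below 0, with a median of -1.18. In atg5 16 members had an unadjusted p under 0.05, as did 12.8% of all probe sets, and 0 passed with limma, where 0.044% of all probe sets were lower and 0.022% higher. In Col-0 10 had an unadjusted p under 0.05, as did 12.1% of all, and 0 passed with limma, where 0.366% were lower and 0.169% higher. The photosynthesis probe sets shared this, with 27 of 43 at an unadjusted p under 0.05 in atg5 and 24 of 43 in Col-0. Their medians were -1.76 in atg5 and -1.32 in Col-0, and 0 passed in either. In atg5 the groups did not overlap for 17 members lower at T60 and 2 higher (rps14 and ycf3), and in Col-0 for 15 lower and 1 higher (rpl36). Over all tested probe sets 22.4% lay wholly lower at T60 and 20.4% wholly higher in atg5, and in Col-0 20.2% lower and 29% higher. The smallest adjusted p was 0.133 in atg5, for rpl32 (-3.64 ± 0.81), and 0.149 in Col-0, for ycf4 (-2.10 ± 0.55). In atg5 rpl14 and rpl32 passed without the T60 array from culture 2, and in Col-0 rps2 passed without the HN array from culture 1.

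Among the members that were never called, the 4 polymerase subunits did not move as a set. With age in atg5 they lay at -1.67 to -0.04, in atg9 at -0.92 to 1.81 and in Col-0 at -0.51 to 1.81. The catalytic subunit gene rpoC1 had 664 and 251 in atg5 at LN T60, against 3333 and 505 at T30, and in Col-0 639 and 262 at T60, against 1321 and 221 at T30. In atg5 both cultures had the smaller value at T60, at a difference of -1.67 ± 0.77 (adjusted p = 0.132). The maturase gene matK, whose product splices plastid introns, had 4177 and 1039 in atg5 at T60, against 10025 and 2222 at T30, and 11688 and 6121 on HN. In Col-0 it had 2830.2 and 1318 at T60, against 8056 and 1074 at T30, and 6481 and 7441 on HN. Its age difference in atg5 was -1.18 ± 0.61, and the ages overlapped in both genotypes.

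The 6 ribosomal protein genes without a call were rps2, rps4, rps14, rps15, rps16 and rpl20, and with age in atg5 they lay at -1.82 (rps4) to 0.33 (rps14). The signals of rps4 were 925 and 316 in atg5 at LN T60, against 4328 and 845.5 at T30, and 866 and 264 in Col-0 at T60, against 2668 and 274 at T30. The 9 called genes were lowest on an atg5 array at LN T60, as was matK, which was not called. For the 9 this is not independent of their calls, which use the same arrays. Lowest in Col-0 at LN T60 from culture 2 were rps2, rps4, rps14, rps15 and rps16, with clpP, accD, ycf4, ccsA and rpoC2. For clpP, the catalytic subunit of the Clp protease, atg5 had 2066 and 599 at LN T60, against 7446 and 1153 at T30, and Col-0 had 1303 and 463 at T60, against 5001 and 576 at T30. Culture 1 had the larger gap in both genotypes, at -1.85 in atg5 and -1.94 in Col-0. The fitted difference in atg5 was -1.40 ± 0.93. For accD, a subunit of the enzyme that starts fatty acid synthesis, atg5 had 1644 and 485 at T60, against 739 and 239.7 in Col-0. Both atg5 values were above the Col-0 value of their culture, at 1.08 ± 0.50 (adjusted p = 0.22).

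The remaining 4 genes were ycf3 and ycf4, which act in photosystem I assembly, ccsA, which acts in attaching haem to plastid cytochromes, and cemA, which encodes a protein of the chloroplast envelope. With age in atg5 they lay at -1.71 to -0.76, below 0 in both cultures for all 4, and 0 passed. The signals of ccsA in atg5 were 3454 and 1136 at LN T60, against 7137 and 2034 at T30, and those of cemA were 1553 and 521, against 6272 and 1389. At LN T60 against Col-0 the 4 genes lay at -0.36 (cemA) to 0.72 (ycf4).

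Nuclear genes for the plastid ribosome changed with age in every genotype. Of 36 such genes listed, 7 had a named probe set (PRPL3, PRPL5, PRPL17, PRPL29, PRPL34, PRPS6 and PRPS10), and all 7 were tested. With age 7 of 7 were lower in atg5, at -0.80 to -1.57, and 7 of 7 in atg9, at -0.98 to -1.63. In Col-0 4 of 7 were lower (PRPL3, PRPL17, PRPL34 and PRPS6), with all 7 at -0.66 to -1.14. Over all tested probe sets 13.3% were lower with age in atg5, 8.61% in atg9 and 4.67% in Col-0. At LN T60 0 of 7 passed in atg5 against Col-0 with limma, with 2 at an unadjusted p under 0.05 and a range of -0.71 to -0.06. Of all tested probe sets 23.6% had such an unadjusted p. In atg9 against Col-0 0 of 7 passed, with 0 at an unadjusted p under 0.05. At LN T30 against HN 5 of 7 were higher in atg5, at 0.74 to 1.12, and 2 of 7 in Col-0 (PRPL29 at 0.79 and PRPS6 at 1.15), comparisons in which 0 plastid-encoded members were called. Of all tested probe sets 5.13% were higher there in atg5 and 3.32% in Col-0. Of the nuclear Clp protease genes 5 of 14 had a named probe set. CLPT2, an accessory subunit, was lower with age in each genotype, at -0.77 in atg5, -0.77 in atg9 and -1.31 in Col-0. It was the only 1 of the 5 called with age. Their highest differences were 0.35 in atg5, 0.44 in atg9 and 0.35 in Col-0.

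**Figure D5:**
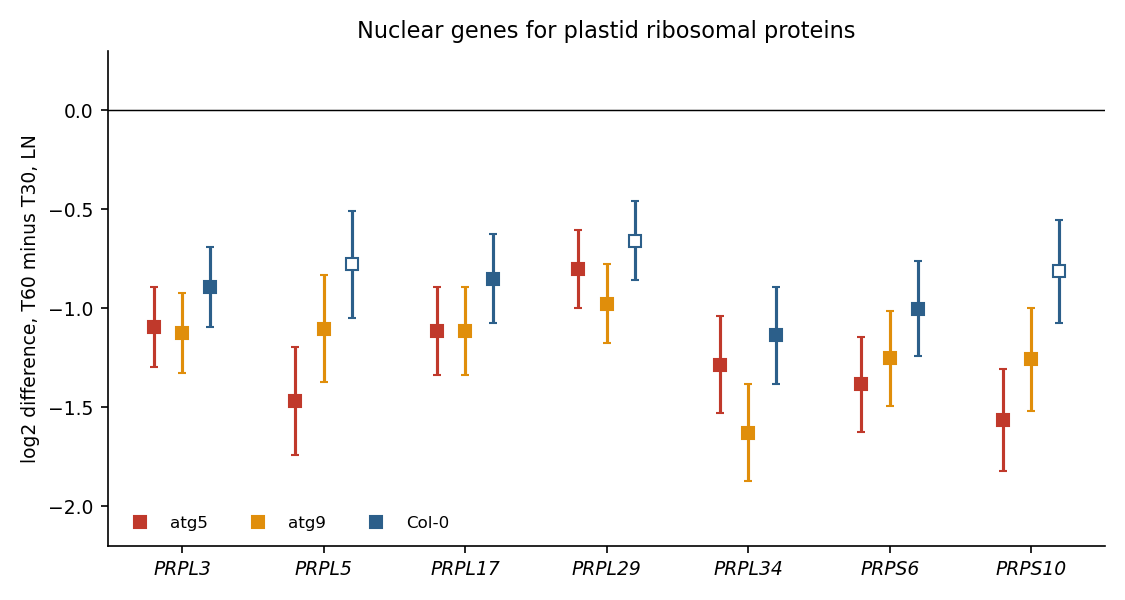
Log2 difference between T60 and T30 on low nitrate, with SE bars, for the 7 nuclear genes of plastid ribosomal proteins in atg5, atg9 and Col-0. Filled squares passed the test and open squares did not. All 21 means lie below 0.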

How the data were processed

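The deposited table gives 22810 probe sets an intensity on a linear scale. The submitters' processing notes name MAS5 as the tool, without a version. The 2% trimmed mean was 500.0 to 500.1 on every array, so the arrays had been scaled to a common value. There are no detection calls, and the number of arrays limits the precision.

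After leaving out 64 control probe sets, signals under 1 were set to 1, log2 was taken, and probe sets under the 40th percentile of mean log2 signal (a geometric mean signal of 93.9) were dropped, leaving 13648. limma 3.58.1 (R 4.3.3; lmFit, eBayes with trend) fitted 8 group means with culture as a block, leaving 7 residual degrees of freedom (prior degrees of freedom, median 4.64). The tests were two-sided, were adjusted by Benjamini-Hochberg in each of 14 comparisons and used a threshold of 0.05. The fit was also run on simulated data, with changes put into atg5 at LN T60 and independent noise without a culture effect. Only the age comparison in atg5 was checked there. The labels say that the replicate number marks a shared culture. Over 28 pairs of groups the culture differences correlated at -0.159 to 0.686 across probe sets. The median was -0.0657, and 8 pairs were over 0.1.

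Gene names come from the array's probe annotation (13513 probe sets with 1 gene, 503 with several) and gene order from the RefSeq gene table of TAIR10.1. Called members are given on every array. Uncalled ones are given by range, with up to 2 examples a class by mean signal, and nuclear list genes where called. The members and lists were chosen with earlier results of these data known. Lists for polymerase-associated proteins, nuclear acetyl-CoA carboxylase, protein import, flower and seed had 0 named probe sets. Of the sigma factor and phage type polymerase list, 1 probe set (RPOTMP) was named and fell under the filter, and CAF1, the 1 of 13 RNA processing factors with a named probe set, passed in 0 comparisons. Alternatives were no block, quantile normalization, median centring, no filter, 32 added before log2, no trend, leaving out each array, and leaving out the 2 arrays that stand apart.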

Additional observations from a re-analysis of the deposited data

Results flagged for a closer look

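For 6 members the nitrate difference ran in opposite directions in atg5 and Col-0, in both cultures of each genotype. These differences between genotypes were not tested. The 6 were singled out after the values of all members were seen at both LN ages. How many of all tested probe sets did the same was not counted. Whether 6 is more than the background is thus unknown, and no response particular to a genotype is drawn from it. At LN T30 against HN, ycf3 stood at 1.50 in atg5 and -0.68 in Col-0. The ribosomal gene rpl20 stood at 1.27 in atg5 and -0.83 in Col-0, rps15 at 0.46 in atg5 and -0.29 in Col-0, rpl14 at 0.47 in atg5 and -0.91 in Col-0, and rpl16 at 0.45 in atg5 and -0.89 in Col-0. At LN T60 against HN rpl36 stood at -1.05 in atg5 and 0.82 in Col-0. None of the 12 single-genotype differences was called.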

How the results depend on the processing

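Counts of called members moved as follows. Without the 2 arrays that stand apart, 0 passed in atg5 against Col-0 at LN T60 (rpl14 at -2.05, adjusted p = 0.107), 5 with age in atg5 and 1 in LN T30 against HN in atg5. With median centring 1 passed with age in atg9, 2 in LN T30 against HN in Col-0 and 2 in the interaction of atg5, and with 32 added 1 in LN T30 against HN in atg5 and 2 in that interaction. Without the replicate block 1 passed in that interaction (rpl14, adjusted p = 0.047), and without the filter 1. Without the block rpl36 also passed in atg5 against Col-0 at LN T60 (adjusted p = 0.047), and rpl33 and rps18 did not pass with age in atg5. That rpl36 difference also passed with quantile normalization (0.0477) and with 32 added (0.0452), while rpl36 did not pass with age in atg5 with quantile normalization (0.0585), median centring (0.0575) or no filter (0.0516). The causes were not tested. Leaving out each array in turn gave 2 to 9 with age in atg5, 0 to 4 in atg5 against Col-0 at LN T60, 0 to 2 with age in atg9, in LN T30 against HN in Col-0, in LN T60 against HN in atg5 and in the interaction of atg5, 0 to 1 in LN T30 against HN in atg5 and in LN T60 against HN in Col-0, and 0 in the others. The members' median level ran from 8.86 to 9.91 in atg5 at LN T60, 11.38 to 11.94 in atg5 on HN and 11.25 to 11.99 in Col-0 on HN by culture. Of the log2 differences of the 9 genes, 557 kept direction and side of the threshold, 44 lost and 20 gained a call, and 0 reversed. These counts cover all alternatives for the age change in atg5, atg5 against Col-0 at LN T60 and the interaction of atg5. The 557 include differences that were not called in the main fit and stayed so, and are thus not a count of kept calls. Median centring moved the median of all probe sets by 0.33 in atg9 against Col-0 at LN T30 and by -0.42 in the interaction of atg9.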
